A study of Mus musculus with 26 samples.

Results

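The 10 genes Nr4a1, Nr4a2, Nr4a3, Egr1, Egr2, Egr3, Dusp1, Dusp2, Ier2 and Cd69 are early activation genes, whose transcripts appear soon after a T cell receives a receptor signal. They were taken by symbol from the gene tables of the series. All 10 were found among the 24848 listed genes, and all 10 passed the filter on low counts. The series measured polyadenylated RNA in 26 libraries of CD4 T cells from C57BL/6 mice with experimental autoimmune encephalomyelitis (EAE), an induced inflammatory disease of the central nervous system (CNS), at day 14. Treg cells (Foxp3+ regulatory cells) and Tconv cells (Foxp3- conventional cells) came from the CNS or the draining lymph nodes (dLN). Mice called icKO carried Foxp3Cre-ERT2 together with Tnfrsf1bFlox/Flox, so that tamoxifen removes TNFR2, the TNF receptor encoded by Tnfrsf1b, from cells that express Foxp3. Mice called Ctrl carried Foxp3Cre-ERT2 without the floxed allele. Both genotypes received tamoxifen from day 7 to day 14 and both had EAE. The Cre is driven by Foxp3, so in Tconv cells, sorted as Foxp3-, the genotype comparison concerns cells outside the driver's expression. Each group had 3 libraries, except CNS Tconv cells with 4 libraries per genotype. The labels call each library a mouse replicate. The p-values measure the spread between these libraries.

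Early activation genes can be transcribed without new protein synthesis. Receptor signals reach them through kinases that act on transcription factors already present, among them SRF with its ELK partners, CREB and NFAT. The EGR proteins are zinc finger activators, of which EGR2 and EGR3 are known for restraining T cell activation. The NR4A proteins are orphan nuclear receptors induced by antigen receptor signals. DUSP1 and DUSP2 remove phosphates from MAP kinases and so end the signal that induced them. Several immediate early genes are also known to be induced while a tissue is dissociated into single cells.

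Total expected counts were 12.4 to 18.5 M in 25 libraries, and 11089 to 14259 genes were above 0 in each. The remaining library, dLN Tconv icKO replicate 3, had 7.78 M and 6005 genes, and the highest rank correlation it reached was 0.70, where each of the 25 reached 0.944 or more. Scaled to its own total, it held 1532 CPM of the myeloid gene Lyz2, against 31.4 to 70.5 CPM in the dLN Tconv Ctrl libraries. The fit reported here left this library out, so dLN Tconv icKO had 2 libraries, and calls of members that changed with all 26 are given both ways. Adding it moved the median log2 fold change of all genes by 0.22 for CNS against dLN in icKO Tconv cells and 0.30 for Treg against Tconv in the icKO dLN. The common dispersion, edgeR's estimate of spread over all groups, was 0.1415 in the fit of 25 libraries and 0.3635 in that of 26. This estimate also enters comparisons that do not hold the added library. Within the 25 libraries Foxp3 was 23.9 to 69.4 CPM in Treg libraries and at most 1.53 CPM in Tconv libraries. The Tconv library left out held 14.7 CPM of it, scaled to its own total. The targeted gene Tnfrsf1b averaged 406 ± 89.6 CPM in CNS Treg icKO libraries and 610 ± 137 CPM in CNS Treg Ctrl libraries (SD, n = 3 each), which overlapped. The dLN Treg libraries had 619 ± 1.198 CPM of it (icKO) and 795 ± 60.5 CPM (Ctrl, SD, n = 3 each), with no overlap. The CNS Tconv libraries had 343 ± 51.9 CPM (icKO) and 208 ± 25.9 CPM (Ctrl, SD, n = 4 each). These are counts over the whole gene, and whether the floxed part takes a share of them was not tested. The file names of 5 CNS Tconv libraries (icKO replicates 2, 3 and 4, Ctrl replicates 3 and 4) carried the code of the other genotype. Groups here follow the labels, and member results of CNS Tconv cells are also given without these 5 libraries where that changes an edgeR call. That fit holds 1 icKO and 2 Ctrl libraries of CNS Tconv cells, and the lone icKO library is assumed to vary like the other groups. Levels per library are CPM (counts scaled to a common library total) after TMM factors, which correct for RNA composition.

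RefSeq's promoter windows for GRCm38.p6, from 250 bases before to 50 after an annotated start, were at hand for 6 of the 10 genes. The 4 printed here are those of Dusp1 and Egr2, which were called between the tissues, and of Nr4a1 and Nr4a3, the pair of members with the highest correlation within groups. They show the 250 bases before the annotated start, from 5′ to 3′ on the strand of the gene. Capitals mark each short CRE (TGACG, on either strand), to which CREB binds, and in Egr2 the CArG box, to which SRF binds. Dusp1 itself lies at chr17:26505591-26508472, and its printed window is chr17:26508473-26508722 on the minus strand. That of Egr2 is chr10:67537619-67537868 on the plus strand, 1 of 5 windows listed for this gene. Nr4a1 has chr15:101266596-101266845 and Nr4a3 has chr4:48045055-48045304, both on the plus strand. The annotated genes span chr10:67534469-67542188 (Egr2), chr15:101253902-101274795 (Nr4a1) and chr4:48045078-48086447 (Nr4a3). The windows of Egr2 and Nr4a1 lie inside these spans, and that of Nr4a3 lies mostly inside.
Dusp1: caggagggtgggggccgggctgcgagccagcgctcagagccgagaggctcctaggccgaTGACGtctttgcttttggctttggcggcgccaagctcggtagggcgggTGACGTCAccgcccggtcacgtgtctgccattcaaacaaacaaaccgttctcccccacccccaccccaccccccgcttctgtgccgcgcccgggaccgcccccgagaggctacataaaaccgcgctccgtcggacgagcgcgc
Egr2: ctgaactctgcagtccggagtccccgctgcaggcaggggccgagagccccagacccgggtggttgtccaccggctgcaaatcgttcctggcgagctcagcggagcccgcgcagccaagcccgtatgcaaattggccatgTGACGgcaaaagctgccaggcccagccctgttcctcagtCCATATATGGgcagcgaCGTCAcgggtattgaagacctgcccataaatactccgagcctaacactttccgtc
Nr4a1: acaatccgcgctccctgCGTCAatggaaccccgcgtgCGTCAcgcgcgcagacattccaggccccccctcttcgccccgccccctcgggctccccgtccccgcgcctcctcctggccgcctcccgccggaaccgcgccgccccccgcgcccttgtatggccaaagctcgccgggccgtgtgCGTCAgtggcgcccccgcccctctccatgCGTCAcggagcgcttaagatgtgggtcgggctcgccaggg
Nr4a3: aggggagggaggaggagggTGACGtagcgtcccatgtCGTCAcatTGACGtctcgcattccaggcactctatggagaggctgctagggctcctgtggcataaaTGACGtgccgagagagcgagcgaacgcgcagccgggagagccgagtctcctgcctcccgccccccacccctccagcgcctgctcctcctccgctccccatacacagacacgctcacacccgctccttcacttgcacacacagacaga

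The short CRE was found 4 times in each of the 3 Nr4a windows, 3 times in Dusp1, 2 times in Egr2 and 1 time in Dusp2. Of 32851 RefSeq windows of the same length, 20.8% held at least 1 such site, 1.03% at least 3 and 0.231% at least 4. In Dusp1 a pair of them formed the full CRE palindrome TGACGTCA, from 143 to 136 bases before the start, which 1.79% of all windows held. Egr2 held a CArG box 72 to 63 bases before its start, against 1.63% of all windows. No window of the 6 held the AP-1 site TGANTCA (7.81% of all windows), and the same was true of the NR4A site AAAGGTCA (1.51%). The EGR site GCGNGGGCG was found in Nr4a1, Nr4a2 and Dusp2 (5.55% of all windows), in each case overlapping a GC box (GGGCGG, 35.7%). All motifs were searched on both strands, and these are letter matches, with no measurement of binding.

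**Figure D1:**
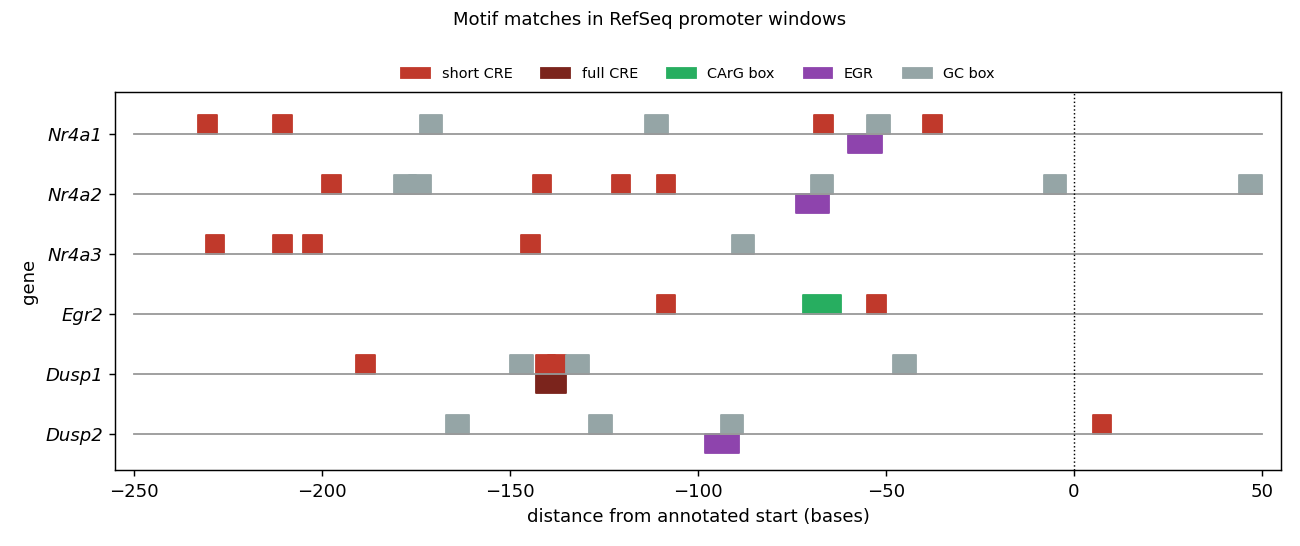
Motif matches in the 6 RefSeq promoter windows, by distance from the annotated start in bases. Coloured blocks are short CREs, the full CRE, the CArG box, EGR sites and GC boxes on either strand, and blocks below a line overlap those above it. The Nr4a windows hold 4 short CREs each, and Dusp1 holds the only full CRE of the 6.

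Levels between genes were compared as TPM, the authors' deposited values scaled to gene length. Over the 25 libraries the median TPM was 304 for Dusp2, 289.7 for Ier2, 231 for Cd69 and 134 for Dusp1. Egr1 had 71.2, Nr4a1 54.4 and Egr2 20.2 TPM. The lowest were Egr3 with 5.22, Nr4a3 with 2.85 and Nr4a2 with 2.66 TPM. The ranges of all neighbours in this order overlapped across libraries. The order changed with the group. In CNS Treg libraries Dusp1 stood first, at 561 ± 41.5 TPM in icKO and 820 ± 311 TPM in Ctrl cells (SD, n = 3 each), above the range of Ier2 in both. In dLN Tconv Ctrl libraries it stood at rank 5, at 42.6 ± 6.95 TPM (SD, n = 3), below Dusp2 with 458 ± 31.5 TPM. Of the Nr4a genes, Nr4a1 had the highest mean TPM in each of the 8 groups. Nr4a2 and Nr4a3 stayed at 10.3 TPM or less in every library.

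**Figure D2:**
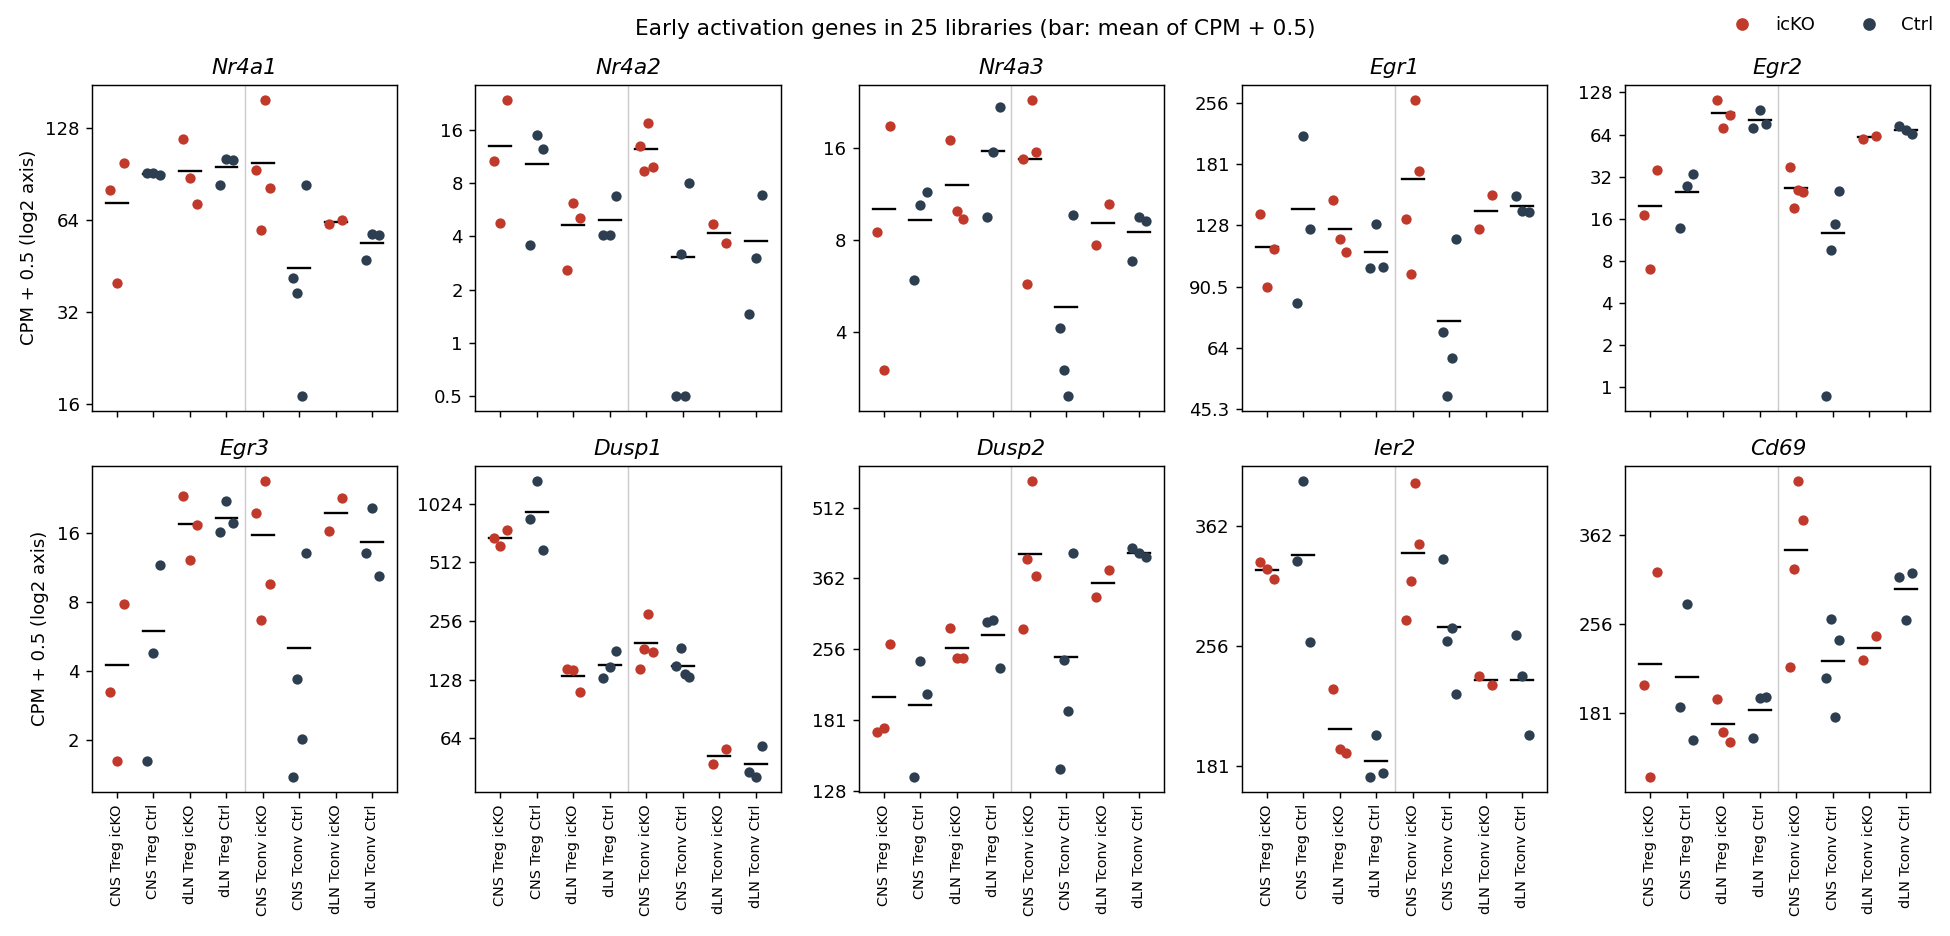
Levels of the 10 genes in each of 25 libraries, as CPM plus 0.5 on a log2 axis, with 1 point per library and a bar at the group mean. Red points are icKO and dark points Ctrl libraries. Dusp1 is high in CNS Treg libraries (591 to 1343 CPM), Egr2 is high in dLN libraries, and the lowest library for Nr4a1 (16.5 CPM) and for Egr1 (48.2 CPM) is a CNS Tconv Ctrl library.

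Cells from the CNS were compared with cells of the same type and genotype from the dLN. By edgeR, the phosphatase gene Dusp1 was higher in the CNS in all 4 of these comparisons and Ier2 in 3, while Egr2 was lower in 2. No other member was called. In icKO Treg cells 2 members were called higher at an adjusted p under 0.05, beside 13.1% of all 13500 tested genes, and 1 lower, beside 9.41%. In Ctrl Treg cells 2 were called higher, beside 13.3%, and 0 lower, beside 8.55%. In icKO Tconv cells 2 were called higher, beside 7.81%, and 0 lower, beside 6.3%, while in Ctrl Tconv cells 1 was higher, beside 5.97%, and 1 lower, beside 2.93%. The median over all 10 members, in which these opposite directions meet, was -0.21, 0.06, 0.54 and -0.57 on the log2 scale in these 4 comparisons, beside 0.04, 0.02, 0.00 and -0.01 over all tested genes.

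Dusp1 encodes a nuclear phosphatase that inactivates p38 and JNK as well as ERK. In Treg cells of icKO mice it had 679.5, 618 and 746 CPM in the CNS, against 145, 144 and 111 CPM in the dLN. In Treg cells of Ctrl mice it had 852, 1343 and 591 CPM in the CNS, against 131, 148 and 179.5 CPM in the dLN. Every CNS Treg library lay above every dLN Treg library, and the log2 fold change was 2.36 ± 0.26 (SE) in icKO (adjusted p = 2.98e-06) and 2.61 ± 0.26 in Ctrl cells (adjusted p = 8.93e-07, edgeR quasi-likelihood test for both). In Tconv cells of icKO mice the CNS libraries had 145, 183, 279 and 178 CPM, against 46.8 and 56.1 CPM in the dLN. In Tconv cells of Ctrl mice they had 151, 185, 136 and 132 CPM, against 42.7, 40.2 and 57.8 CPM in the dLN. The groups did not overlap here either. Genes higher in the CNS with no overlap made up 20.9% of those tested in icKO Treg, 22.1% in Ctrl Treg, 20.1% in icKO Tconv and 9.55% in Ctrl Tconv cells. In Tconv cells the test gave log2 fold changes of 1.93 ± 0.29 (adjusted p = 8.67e-05) and 1.69 ± 0.24 (adjusted p = 0.000156, edgeR). With all 26 libraries the icKO Tconv value was 1.09 ± 0.35 (adjusted p = 0.0503).

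Myeloid transcripts moved with tissue in the Treg libraries. The summed level of 15 myeloid markers, all 15 of them measured, was 9171 to 13090 CPM in CNS Treg icKO and 9759 to 12760 CPM in CNS Treg Ctrl libraries, against 1095 to 1736 and 871 to 2023 CPM in the dLN Treg libraries. Of the 15, 14 were called higher in the CNS in each genotype. The sums of 6 microglia markers were 1675 to 2070 CPM in CNS Treg icKO and 1656 to 2258 CPM in CNS Treg Ctrl libraries, against 84.6 to 121 CPM in dLN Treg libraries. Markers of CD8 T cells and NK cells moved with tissue too. Of 5 such markers 4 were called higher in CNS than in dLN Treg cells of each genotype, among them Klrd1, a receptor chain of NK and CD8 T cells (5.43 ± 0.69 in icKO, adjusted p = 1.44e-05, and 4.54 ± 0.68 in Ctrl, adjusted p = 9.2e-05), and Cd8a, a chain of the CD8 co-receptor (5.42 ± 1.01 in icKO, adjusted p = 0.000641, and 3.75 ± 0.94 in Ctrl, adjusted p = 0.00697). The fifth, the NK receptor gene Ncr1, was at 0 in all dLN Treg libraries and in 4 of the 6 CNS Treg libraries. The sums of the 5 were 267 to 611 CPM in CNS Treg icKO and 126 to 165 CPM in CNS Treg Ctrl libraries, against 32.4 to 41.0 and 32.6 to 37.2 CPM in the dLN Treg libraries. The part of these cells in the Treg results, those of Ier2 and Egr2 included, was not tested, and in bulk RNA fewer cells of a type and less RNA per cell cannot be told apart. In Tconv libraries the myeloid sums were 391 to 826 CPM for icKO cells of the CNS and 266 to 1211 CPM for Ctrl cells of the CNS, against 767 to 909 and 513 to 975 CPM in the dLN groups. The median log2 fold change of the 15 markers, CNS against dLN, was 0.20 in icKO and 0.29 in Ctrl Tconv cells. With all 26 libraries these medians were -1.49 and 0.31. Without the 5 libraries they were -0.68 with 1 CNS icKO library and -2.45 with 2 CNS Ctrl libraries. Of 6 microglia markers, 3 were called higher in CNS than in dLN Tconv cells of each genotype. The shares of all genes were 7.81% in icKO and 5.97% in Ctrl cells. With all 26 libraries 2 were called higher in icKO and 1 in Ctrl cells. Microglia sums in the CNS were 182 to 309 CPM (icKO) and 128 to 423 CPM (Ctrl). In the dLN they were 122 to 153 and 106 to 191 CPM. Of the 5 CD8 and NK markers 1 was called higher in each genotype. CNS Tconv Ctrl replicates 1 to 4 had myeloid sums of 266, 346.5, 712 and 1211 CPM, and 151, 185, 136 and 132 CPM of Dusp1. The part of myeloid, microglia, CD8 or NK cell RNA in the Tconv results was not tested.

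**Figure D3:**
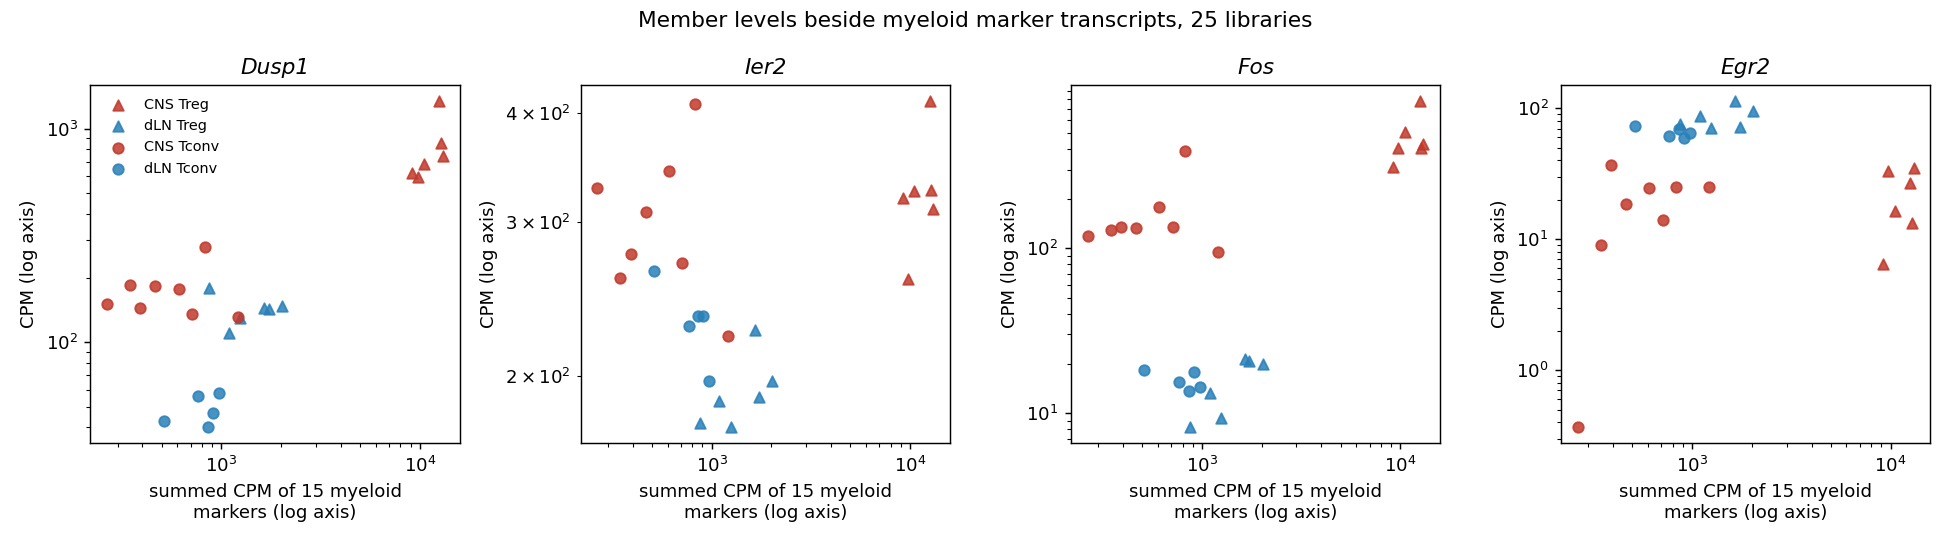
Levels of Dusp1, Ier2, Fos and Egr2 in 25 libraries beside the summed CPM of 15 myeloid markers, both on log axes. Triangles are Treg and circles Tconv libraries, red from the CNS and blue from the dLN. CNS Treg libraries lie at sums of 9171 CPM and more. Tconv libraries have myeloid sums of 266 to 1211 CPM in the CNS and 513 to 975 CPM in the dLN. Dusp1 and Fos are higher in the CNS Tconv than in the dLN Tconv libraries shown, and the part of myeloid RNA was not tested. Microglia markers are not part of these sums.

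Ier2, a small nuclear protein named as an immediate early response gene, had 326, 319.5 and 311 CPM in CNS Treg cells of icKO mice, against 226, 189 and 187 CPM in their dLN Treg cells. In Ctrl mice it had 327, 413 and 258 CPM in CNS Treg cells, against 175, 197 and 177 CPM in dLN Treg cells. The groups did not overlap in either genotype. The log2 fold changes were 0.67 ± 0.17 in icKO (adjusted p = 0.00591) and 0.86 ± 0.17 in Ctrl cells (adjusted p = 0.000962, edgeR). With all 26 libraries the icKO call did not pass (0.63, adjusted p = 0.141). In icKO Tconv cells the value was 0.53 ± 0.18 (adjusted p = 0.0494), with 276, 308, 409.6 and 343 CPM in the CNS against 234 and 228 CPM in the dLN. That call lay at the threshold and was kept in 1 of 6 fits that left out 1 library, the fit without CNS Tconv icKO replicate 1. With all 26 libraries the value was 0.04 (adjusted p = 0.953), and without the 5 libraries, where 1 CNS library remained, it was 0.26 (adjusted p = 0.644). In Ctrl Tconv cells the difference was 0.22 ± 0.15 (adjusted p = 0.399), and the libraries overlapped.

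Egr2 was called lower in the CNS in 2 of the 4 comparisons. It had 16.5, 6.48 and 35.0 CPM in CNS Treg cells of icKO mice, against 113, 71.4 and 87.4 CPM in their dLN Treg cells. In Ctrl mice it had 13.3, 26.8 and 32.9 CPM in CNS Treg cells, against 70.4, 95.5 and 75.9 CPM in dLN Treg cells. All CNS Treg libraries lay below all dLN Treg libraries, and the log2 fold change was -2.23 ± 0.66 in icKO (adjusted p = 0.0187) and -1.72 ± 0.65 in Ctrl cells (adjusted p = 0.0619, edgeR). In Ctrl Treg cells limma voom called it (adjusted p = 0.0024) and DESeq2 did not. CNS Tconv cells of Ctrl mice had 0.369, 9.09, 14.1 and 24.99 CPM, against 73.4, 69.1 and 64.2 CPM in the dLN, a log2 fold change of -2.51 ± 0.61 (adjusted p = 0.0128). CNS Tconv cells of icKO mice had 36.8, 18.5, 25.2 and 24.5 CPM, against 59.2 and 61.9 CPM, a value of -1.203 ± 0.65 that did not pass by edgeR (adjusted p = 0.246) or DESeq2 and passed by limma voom (adjusted p = 0.00654). The libraries of CNS and dLN did not overlap for Egr2 in any of the 4 comparisons. Genes lower in the CNS with no overlap made up 19.7% of those tested in icKO Treg, 20.2% in Ctrl Treg, 21.8% in icKO Tconv and 9.64% in Ctrl Tconv cells. With all 26 libraries the adjusted p of the Egr2 change was 0.0839 in icKO Treg and 0.0828 in Ctrl Tconv cells. The icKO Treg call was also lost without CNS Treg icKO replicate 1 or 2 or dLN Treg icKO replicate 1 (adjusted p = 0.0537, 0.0777 and 0.0525).

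Egr3, the close relative of Egr2, also lay lower in all CNS Treg libraries than in all dLN Treg libraries. It had 2.75, 1.11 and 7.35 CPM in CNS Treg icKO libraries, against 22.7, 11.7 and 16.7 CPM in dLN Treg icKO libraries. In Ctrl mice the values were 1.13, 4.29 and 11.1 CPM in the CNS, against 15.7, 21.4 and 17.1 CPM in the dLN. The log2 fold changes of -2.19 ± 0.83 (adjusted p = 0.0602) and -1.71 ± 0.81 (adjusted p = 0.134, edgeR) did not pass, and DESeq2 called the icKO value (adjusted p = 0.0258). In Tconv cells Egr3 stood at -0.32 ± 0.82 in icKO (adjusted p = 0.85) and -1.64 ± 0.74 in Ctrl mice (adjusted p = 0.168), the Ctrl value being called without the 5 libraries (-2.77, adjusted p = 0.0307, 2 CNS libraries). Egr1, the founding member of the family, did not follow them in Treg cells, with -0.15 ± 0.33 in icKO (adjusted p = 0.796) and 0.35 ± 0.33 in Ctrl cells (adjusted p = 0.489). In Ctrl Tconv cells Egr1 had 69.5, 48.2, 59.8 and 118 CPM in the CNS, against 150.5, 139 and 138 CPM in the dLN, with no overlap. Its log2 fold change there was -0.95 ± 0.31 (adjusted p = 0.0586, edgeR). DESeq2 and limma voom called it (adjusted p = 0.024 and 0.0183), as did edgeR without the 5 libraries (-1.28, adjusted p = 0.00768). In icKO Tconv cells Egr1 stood at 0.26 ± 0.36 (adjusted p = 0.694).

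None of Nr4a1, Nr4a2, Nr4a3, Dusp2 and Cd69 passed in a tissue comparison under the edgeR fit of 25 libraries. Their log2 fold changes ran between -0.89 for Nr4a3 in Ctrl Tconv cells and 1.69 for Nr4a2 in icKO Tconv cells (adjusted p = 0.396). Nr4a2 had 12.5, 8.87, 17.2 and 9.43 CPM in CNS Tconv icKO libraries, against 4.23 and 3.19 CPM in the dLN, with no overlap. Dusp2 in Ctrl Tconv cells stood at -0.74 ± 0.27 (adjusted p = 0.0886, edgeR) and was called by DESeq2 and by limma voom (adjusted p = 0.0444 and 0.0164), and by edgeR without the 5 libraries (-1.09, adjusted p = 0.00639). In icKO Tconv cells limma voom called Cd69 higher (0.57, adjusted p = 0.0395), and edgeR on the compared groups only called Nr4a2 higher (adjusted p = 0.0118).

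**Figure D4:**
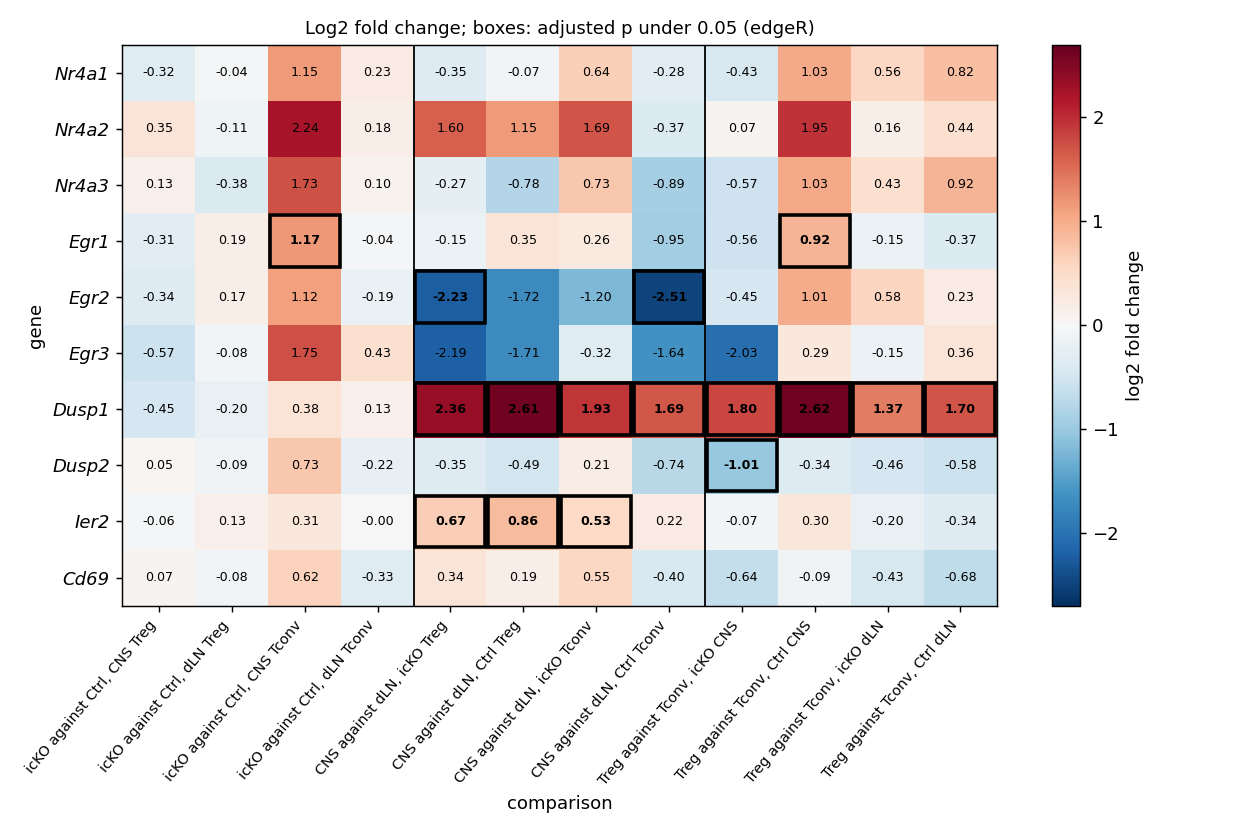
Log2 fold changes of the 10 genes in 12 comparisons, with the number in each cell and a black box where the edgeR adjusted p was under 0.05. The first 4 columns are icKO against Ctrl, the next 4 CNS against dLN and the last 4 Treg against Tconv cells. Dusp1 is boxed in all 8 tissue and cell type columns (1.37 to 2.62), and Egr1 is the only box among the genotype columns (1.17).

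Treg cells were compared with Tconv cells of the same tissue and genotype. By edgeR, Dusp1 was higher in Treg cells in all 4 comparisons, and no other member was called in more than 1. In the CNS of icKO mice 1 member was called higher, beside 8.38% of all tested genes, and 1 lower, beside 4.2%. In the CNS of Ctrl mice 2 were higher, beside 10.8%, and 0 lower, beside 7.03%. In the dLN of icKO mice 1 was higher, beside 5.44%, and 0 lower, beside 4.47%, and in the dLN of Ctrl mice 1 was higher, beside 6.04%, and 0 lower, beside 5.48%. For Dusp1, whose values per library are given above, the log2 fold change was 1.80 ± 0.23 in the icKO CNS (adjusted p = 1.27e-05) and 2.62 ± 0.23 in the Ctrl CNS (adjusted p = 1.65e-07, edgeR). In the dLN it was 1.37 ± 0.29 in icKO (adjusted p = 0.00315) and 1.70 ± 0.25 in Ctrl mice (adjusted p = 8.92e-05). With all 26 libraries the icKO dLN value was 0.59 ± 0.36 (adjusted p = 0.403), and without dLN Tconv icKO replicate 1 it was 1.29 (adjusted p = 0.07). Myeloid sums differed between cell types as well, at 9171 CPM or more in CNS Treg and 1211 CPM or less in CNS Tconv libraries. In the icKO dLN they were 1095 to 1736 CPM in Treg and 767 to 909 CPM in Tconv libraries, with no overlap, and 0 of the 15 markers were called. In the Ctrl dLN they were 871 to 2023 CPM in Treg and 513 to 975 CPM in Tconv libraries, which overlapped, and 1 marker, Lyz2, was called higher in Treg cells (2.57 ± 0.84, adjusted p = 0.0483). Within the 25 libraries, every dLN Treg library (111 CPM or more) exceeded every dLN Tconv library (57.8 CPM or less) in Dusp1. The dLN Tconv icKO library left out held 193.0 CPM of it, scaled to its own total, above all dLN Treg libraries. The part of myeloid RNA in this result was not tested.

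Dusp2, the phosphatase of activated lymphocytes, was lower in Treg cells of the icKO CNS. It had 170.0, 173 and 262 CPM in these Treg libraries, against 283, 398, 584 and 366 CPM in the Tconv libraries, with no overlap, and a log2 fold change of -1.01 ± 0.28 (adjusted p = 0.0181, edgeR). It did not pass without CNS Treg icKO replicate 1 or 2 or CNS Tconv icKO replicate 3 (adjusted p = 0.0682, 0.0784 and 0.0713), with all 26 libraries (0.0546), or without the 5 libraries whose file names disagreed (-0.50, 0.413), a fit with 1 Tconv library in this comparison. In the Ctrl CNS it was -0.34 ± 0.27 (adjusted p = 0.431). The phosphatase genes Dusp1 and Dusp2 were called in opposite directions in this comparison. Egr1 was higher in Treg cells of the Ctrl CNS, with 81.8, 212 and 125 CPM against 69.5, 48.2, 59.8 and 118 CPM in Tconv cells, although the groups overlapped (0.92 ± 0.31, adjusted p = 0.0432). This call was kept in 2 of 7 fits that left out 1 library (those without CNS Treg Ctrl replicate 1 or CNS Tconv Ctrl replicate 4), was 0.49 without CNS Treg Ctrl replicate 2 (adjusted p = 0.35), and with all 26 libraries its adjusted p was 0.15. Nr4a1 had 90.4, 90.4 and 89.0 CPM in Treg cells of the Ctrl CNS, against 40.8, 36.3, 16.5 and 82.5 CPM in Tconv cells, which did not overlap and did not pass by edgeR (1.03 ± 0.37, adjusted p = 0.0546). It was called by DESeq2 and limma voom (adjusted p = 0.0227 and 0.017) and by edgeR without the 5 libraries (1.22, adjusted p = 0.00572), where Egr2 was also called higher in Treg cells of the Ctrl CNS (2.32, adjusted p = 0.037). Both rest there on 2 Tconv libraries. Cd69 did not pass in any of the 4 by edgeR on 25 libraries (adjusted p 0.0813 to 0.833), and lay lower in all dLN Treg than in all dLN Tconv libraries of each genotype. It was called lower in the Ctrl dLN by limma voom (-0.73, adjusted p = 0.00302) and by edgeR on the compared groups only (-0.69, adjusted p = 0.00155), which also called it in the icKO dLN (-0.42, adjusted p = 0.0209). Dusp2 and Ier2 lay lower without overlap in the dLN of each genotype too, and Egr1 in the Ctrl dLN. Nr4a1 lay higher without overlap in the dLN of each genotype, and Egr2 in the icKO dLN. In the Ctrl dLN both of those fits called Dusp2 lower and Nr4a1 higher, and the compared groups also Egr1 lower. In the icKO dLN the compared groups called Dusp2 lower and Egr2 higher. Genes lower in Treg cells with no overlap made up 8.69% in the icKO CNS, 26.1% in the icKO dLN and 19.0% in the Ctrl dLN. Those higher with no overlap made up 12.1% in the icKO CNS, 13.8% in the Ctrl CNS, 26% in the icKO dLN and 19.3% in the Ctrl dLN.

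The study's own question was the effect of removing TNFR2 from Treg cells. In Treg cells, the cells in which the allele is targeted, 0 of 10 members were called in the CNS and 0 of 10 in the dLN, beside 0.0% of all tested genes in each, and 0 members had an unadjusted p under 0.05. DESeq2 and limma voom also called 0 members in both. In CNS Treg cells the largest of these log2 differences were -0.57 ± 0.81 for Egr3 and -0.45 ± 0.24 for Dusp1 (adjusted p = 0.991 and 0.765, edgeR). In dLN Treg cells all 10 lay between -0.38 and 0.19. Within CNS Treg icKO cells the 3 libraries were far apart for several members: Nr4a1 had 79.4, 39.2 and 97.8 CPM, against 90.4, 90.4 and 89.0 CPM in Ctrl libraries. Differences within this spread were not detectable.

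CNS Tconv cells, sorted as Foxp3-, gave the only genotype call by edgeR, and the only genotype calls by DESeq2 and limma voom, which called 4 members each. Egr1 was higher in icKO than in Ctrl mice, and all 10 members had a positive log2 fold change, from 0.31 to 2.24 with a median of 1.13, beside a median of 0.00 over all genes. The count called was 1 of 10, beside 3.1% of all tested genes in either direction, 1.58% higher and 1.53% lower, and 8 of 10 had an unadjusted p under 0.05, beside 2437 of 13500 genes. The number of all genes called in this comparison depended on the libraries fitted. It was 419, and 12 with all 26 libraries, 102 with the compared groups only, 158 without the 5 libraries, 90 from those 5 alone, 892 by DESeq2 and 452 by limma voom. The members vary together across libraries, as described below, so their shared sign is not 10 separate observations. Egr1 had 132, 96.8, 260.3 and 174 CPM in icKO libraries, against 69.5, 48.2, 59.8 and 118 CPM in Ctrl libraries. Of the 4 Ctrl libraries 3 lay below all icKO libraries and replicate 4 lay among them. The log2 fold change was 1.17 ± 0.29 (adjusted p = 0.0334, edgeR). It was kept at similar size but did not pass with all 26 libraries (1.16, adjusted p = 0.313), without the 5 libraries whose file names disagreed (1.18, adjusted p = 0.12, 1 icKO and 2 Ctrl libraries), or with those 5 alone (0.99, adjusted p = 0.242, 3 icKO and 2 Ctrl libraries). DESeq2 and limma voom called it (adjusted p = 0.00303 and 0.0172). Without icKO replicate 3 it was 0.87 (adjusted p = 0.138), and it did not pass without icKO replicate 4 (adjusted p = 0.0767) or without Ctrl replicate 1, 2 or 3 (0.076 to 0.0895). The myeloid sum ran from 391 to 826 CPM across the icKO libraries and from 266 to 1211 CPM across the Ctrl libraries, and 0 of the 15 markers were called between genotypes by edgeR. Their median log2 fold change was 0.87 by edgeR and 1.90 by limma voom. Without the 5 libraries, with 1 icKO library left, it was 1.26, and from those 5 alone it was 0.30. The part of myeloid RNA in this comparison was not tested.

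None of the Nr4a genes passed in this comparison by edgeR, with differences from 1.15 to 2.24 on the log2 scale. DESeq2 called Nr4a1 and Nr4a3 (adjusted p = 0.0182 and 0.0247), and limma voom called Nr4a1 and Nr4a2 (adjusted p = 0.0194 and 0.0434). Nr4a1 had 92.6, 58.8, 157 and 80.8 CPM in icKO CNS Tconv libraries, against 40.8, 36.3, 16.5 and 82.5 CPM in Ctrl libraries. Nr4a3 had 14.2, 5.23, 22.5 and 15.03 CPM, against 3.61, 2.51, 1.97 and 9.16 CPM in Ctrl libraries. For both, Ctrl replicate 4 was the 1 Ctrl library inside the icKO range, and edgeR gave 1.15 ± 0.35 (adjusted p = 0.0728) and 1.73 ± 0.54 (adjusted p = 0.0857). Nr4a2 had 12.5, 8.87, 17.2 and 9.43 CPM in icKO libraries, against 0, 2.68, 0 and 7.496 CPM in Ctrl libraries, and was the only member whose groups did not overlap, beside 4.86% of genes that were higher in icKO with no overlap. Its log2 fold change of 2.24 ± 0.95 had an adjusted p of 0.209. Without Ctrl replicate 4, 6 members were called: Dusp2, Egr1, Egr3, Nr4a1, Nr4a2 and Nr4a3.

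Among the other members, Dusp2 had 283, 398, 584 and 366 CPM in icKO CNS Tconv libraries, against 142, 243, 189 and 409 CPM in Ctrl libraries (0.73 ± 0.25, adjusted p = 0.123, edgeR). DESeq2 and limma voom called it (adjusted p = 0.0498 and 0.0476). Cd69, the membrane protein that holds activated cells in tissue by binding the sphingosine 1-phosphate receptor S1PR1, had 216, 317, 448 and 384 CPM, against 207, 261, 178 and 240.3 CPM in Ctrl libraries (0.62 ± 0.22, adjusted p = 0.127). Their ranges overlapped. Egr2 and Egr3 stood at 1.12 ± 0.57 and 1.75 ± 0.70, and Dusp1 and Ier2, the members that separated the tissues, at 0.38 ± 0.21 and 0.31 ± 0.14 (adjusted p 0.188 to 0.356). In dLN Tconv cells 0 members were called with 2 icKO libraries, beside 0.0% of genes. No member there had an unadjusted p under 0.05, and DESeq2 and limma voom called 0. Nr4a1 lay higher and Egr2, Dusp2 and Cd69 lower in both fitted icKO libraries than in all Ctrl libraries, beside 8.1% of genes higher and 8.27% lower with no overlap. In the icKO library left out, scaled to its own total, Nr4a1 and Egr2 lay below and Dusp2 and Cd69 above all Ctrl libraries. With all 26 libraries the log2 fold changes were -0.05 for Nr4a1, -0.26 for Egr2, -0.17 for Dusp2 and 0.01 for Cd69.

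Tests of the differences themselves called 0 members by edgeR in each case. The genotype difference in CNS Treg cells minus that in CNS Tconv cells was negative for all 10, from -2.32 to -0.37, with the lowest adjusted p for Egr1 (-1.48 ± 0.44, adjusted p = 0.127). Beside it, 0.178% of all genes were called, 4 members had an unadjusted p under 0.05, DESeq2 called Egr1 and limma voom called 0. The tissue difference in Ctrl Treg minus that in Ctrl Tconv cells was 0.92 ± 0.34 for Dusp1 (adjusted p = 0.135), 0.65 ± 0.23 for Ier2 (adjusted p = 0.117) and 1.29 ± 0.46 for Egr1 (adjusted p = 0.12). There 3.67% of genes were called, 3 members had an unadjusted p under 0.05, and DESeq2 and limma voom called 0. Without the 5 libraries Egr1 was called there (1.63, adjusted p = 0.0164), with 2 CNS Tconv Ctrl libraries. The genotype difference in CNS Tconv minus that in dLN Tconv cells was positive for all 10, with Cd69 at 0.95 ± 0.36 (adjusted p = 0.479). There 0.0% of genes were called, 3 members had an unadjusted p under 0.05, and both other tools called 0. By edgeR on 25 libraries, the Egr1 call in CNS Tconv cells was not shown to differ from Treg or dLN cells, and the larger Dusp1 value in Treg cells was not shown to exceed that in Tconv cells.

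Beyond the groups, libraries of a group differed in how strongly they expressed the set. After subtracting each group's mean log2 CPM, 38 of 45 pairs of members had a positive Pearson r over 25 libraries, with a median of 0.504. The pairs share library, sort and scaling, and these values are a description. Nr4a1 and Nr4a3 were closest (r = 0.855), then Nr4a3 with Egr3 (0.771) and Dusp2 with Egr3 (0.759). Dusp1 stood with Cd69 (0.733) and Ier2 (0.567) and near 0 with Egr2 (-0.061) and Egr3 (-0.048). Ier2 was negative with Nr4a2 (-0.44) and Egr2 (-0.413). In several groups the same library tended to be highest. CNS Tconv icKO replicate 3 and dLN Treg icKO replicate 1 were highest for 9 of 10 members each. CNS Treg icKO replicate 3 was highest for 8 and CNS Tconv Ctrl replicate 4 for 7. In dLN Tconv Ctrl cells the 3 libraries were highest for 4, 3 and 3 members. The lowest was dLN Treg Ctrl replicate 1 for 9 members and CNS Treg icKO replicate 2 for 8.

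**Figure D5:**
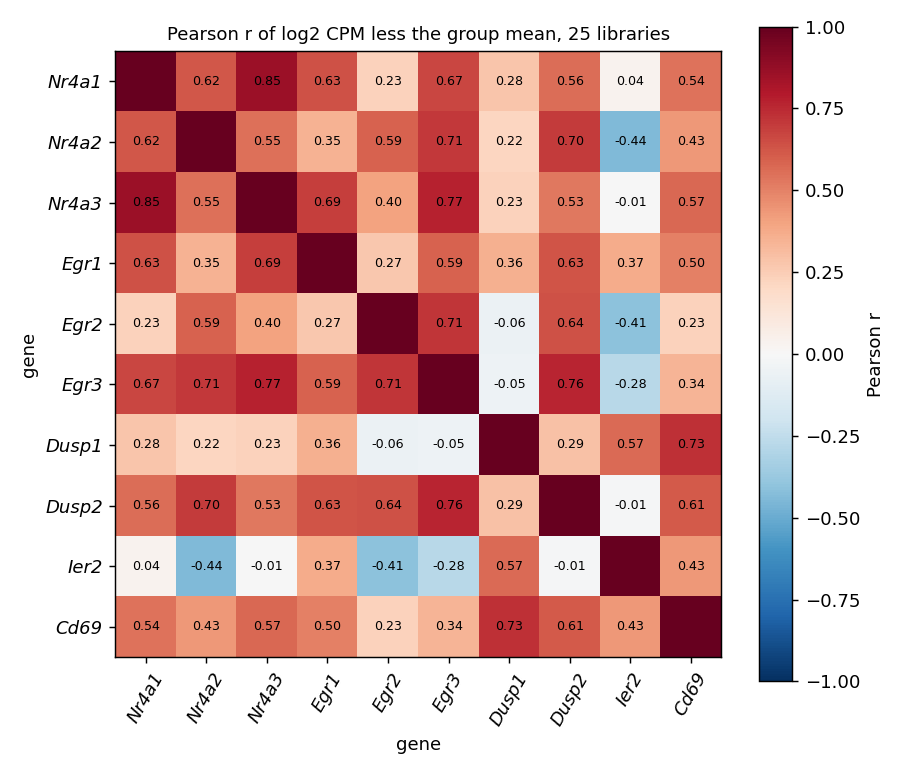
Pearson r between members over 25 libraries, from log2 CPM after subtracting the mean of each group. Red cells are positive and blue negative. The Nr4a genes, the Egr genes, Dusp2 and Cd69 are all positive with each other, and Ier2 is negative with Nr4a2, Egr2 and Egr3.

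By the same measure, the 5 genes outside the set most like the mean of the 10 members, among 9753 with a mean of at least 5 CPM, were Rgs1 (r = 0.878), Tnf (0.847), Skil (0.84), Map3k8 (0.826) and Lta (0.823). Rgs1 dampens G protein signals of chemokine receptors, and Tnf and Lta encode ligands of TNFR2. Rgs1 had 153, 141, 530.2 and 225 CPM in icKO CNS Tconv libraries, against 88.1, 78.0, 51.5 and 129.7 CPM in Ctrl libraries. It rose there by 1.60 ± 0.40 on the log2 scale (adjusted p = 0.0324, edgeR). All 26 libraries gave 1.59 (adjusted p = 0.276), and without the 5 it was 0.90 (adjusted p = 0.397). For single members the highest values were Xrcc2 (0.935) and Enox2 (0.934) for Egr2 and Gpt2 (0.927) for Nr4a2. The closest gene was Litaf (0.855) for Nr4a1, Lta (0.878) for Nr4a3, Ube2j1 (0.805) for Egr1 and Ctla4 (0.871) for Egr3. It was Nfkbia (0.788) for Dusp1, Il1r2 (0.847) for Dusp2, Junb (0.882) for Ier2 and Cdkn1a (0.851) for Cd69.

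Other genes of these pathways were taken from lists, whose counts are edgeR calls in the fit of 25 libraries. Of 29 further immediate early genes, including the AP-1 family, 17 were called higher and 1 lower in CNS than in dLN Treg cells of icKO mice, and 17 higher and 3 lower in Ctrl mice. In Tconv cells 13 were higher and 1 lower in icKO, and 8 higher and 0 lower in Ctrl mice. Of all tested genes, 13.1% were called higher and 9.41% lower in the CNS in icKO Treg cells, 13.3% and 8.55% in Ctrl Treg cells, 7.81% and 6.3% in icKO Tconv cells, and 5.97% and 2.93% in Ctrl Tconv cells. In the fit of all 26 libraries the list had 13 higher and 0 lower in icKO Treg, 11 and 0 in Ctrl Treg, 8 and 4 in icKO Tconv and 5 and 0 in Ctrl Tconv cells, beside 3.74% and 1.41%, 4.1% and 1.65%, 4.14% and 5.09%, and 0.866% and 0.23% of all genes. Fos and Jun, which pair to form AP-1, did not overlap between the tissues in the 25 libraries: Fos had 311 to 779 CPM in CNS Treg and 95.2 to 388 CPM in CNS Tconv libraries, against 8.26 to 21.4 CPM in the dLN libraries. The dLN Tconv icKO library left out held 370.5 CPM of Fos, and with all 26 the Fos value in icKO Tconv cells was 0.78 (adjusted p = 0.576). Jun was 131 to 510 CPM in CNS and 2.98 to 22.3 CPM in dLN libraries. Dusp1 and Ier2 had the direction of Fos and Jun at smaller folds, and Egr2 had the other direction. In CNS Tconv cells of icKO against Ctrl mice 4 of the 29 rose and 0 fell, among them Tnfaip3 (1.15 ± 0.24, adjusted p = 0.0133) and Nfkbiz (1.38 ± 0.31, adjusted p = 0.018), which restrain and shape NF-κB responses. The median log2 fold change of the list there was 0.27, and 1.58% of all tested genes rose and 1.53% fell. The count was 0 of 29 with all 26 libraries, and without the 5 libraries 1 was called higher.

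Of 26 genes induced through the T cell receptor, 6 rose and 1 fell in CNS Tconv cells of icKO mice, with a list median of 0.75, beside 1.58% of all tested genes that rose and 1.53% that fell. The fit of all 26 libraries called 0 of them (list median 0.74), and without the 5 libraries 4 were called higher and 0 lower, with 1 icKO library. From those 5 alone and with the compared groups only, 1 was called higher and 0 lower. The genes called included Ikzf4 (1.74 ± 0.31, adjusted p = 0.00463) and Il2ra, the high affinity chain of the IL-2 receptor (1.19 ± 0.22, adjusted p = 0.00609), both of them called higher in Treg than in Tconv cells of the Ctrl CNS. Their adjusted p was 0.514 and 0.606 with all 26 libraries, at similar fold changes (1.73 and 1.18). Foxp3 was 0.114 to 0.397 CPM in these icKO libraries and 0.379 to 1.53 CPM in the Ctrl libraries. The sum of 4 Treg markers (Foxp3, Il2ra, Ikzf2 and Ctla4) was 190 to 358 CPM in these icKO libraries. It was 99.8 to 142 CPM in the Ctrl libraries, with no overlap. By edgeR 1 of the 4 was called higher and 0 lower. DESeq2 called 2 higher and 1 lower, and limma voom 2 higher and 0 lower. The part of Treg cells in these results was not tested. In Treg cells the tissue comparison of the 26 receptor-induced genes was mixed, with 7 higher and 5 lower in icKO and 8 higher and 5 lower in Ctrl mice. The medians were -0.03 and -0.08, beside 13.1% of all genes higher and 9.41% lower in icKO and 13.3% and 8.55% in Ctrl mice. Among 18 tested genes for dual-specificity phosphatases and other brakes on ERK, 3 were higher and 1 lower in the CNS in icKO Treg cells, 4 and 1 in Ctrl Treg cells, and 3 and 2 in Tconv cells of each genotype. The shares of all genes were 13.1% and 9.41%, 13.3% and 8.55%, and in Tconv cells 7.81% and 6.3% in icKO and 5.97% and 2.93% in Ctrl mice. Adding the left-out library gave 0 of the 18 in 3 of these comparisons, and 3 were higher and 0 lower in icKO Tconv cells. Dusp6, a cytoplasmic ERK phosphatase, was higher in CNS Treg cells (1.66 ± 0.27 in icKO, adjusted p = 0.000164, and 1.83 ± 0.27 in Ctrl, adjusted p = 7.96e-05). Dusp5, a nuclear ERK phosphatase, was higher in CNS Tconv cells (2.68 ± 0.34 in icKO, adjusted p = 1.27e-05, and 1.29 ± 0.27 in Ctrl, adjusted p = 0.00439) and was the 1 gene of this list called between genotypes in CNS Tconv cells (1.26 ± 0.24, adjusted p = 0.00661). For Dusp6 the tissue difference was larger in Ctrl Treg than in Ctrl Tconv cells (2.19 ± 0.36, adjusted p = 0.0014). Fitted on all 26 libraries, the Dusp6 values had adjusted p = 0.348 in icKO Treg cells, 0.279 in Ctrl Treg cells and 0.719 for this difference, and those of Dusp5 had 0.0127 in icKO Tconv cells and 0.607 in Ctrl Tconv cells. The genotype call of Dusp5 was lost in that fit and without the 5 libraries (adjusted p = 0.179).

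Id3, an inhibitor of E proteins that is a known target of EGR factors in developing T cells, had the direction of Egr2. It had 15.2 to 52.5 CPM in CNS Treg and 6.42 to 18.6 CPM in CNS Tconv libraries, against 103 to 196 CPM in dLN Treg and 57.8 to 102 CPM in dLN Tconv libraries. It was called lower in the CNS in all 4 comparisons, with log2 fold changes from -2.84 to -2.03. Of the 16 EGR partners and targets it belongs to, 7 were higher and 2 lower in the CNS in icKO Treg cells, 6 higher and 2 lower in Ctrl Treg cells, 3 higher and 2 lower in icKO Tconv cells and 3 higher and 1 lower in Ctrl Tconv cells. These counts stand beside 13.1% of all genes higher and 9.41% lower, 13.3% and 8.55%, 7.81% and 6.3%, and 5.97% and 2.93%, in the same order. On all 26 libraries, 3 were higher and 1 lower, 2 and 1, 2 and 1, and 0 and 1. Id3 was called in all 4 of those fits as well. Fasl was among those higher in all 4 (1.66 to 2.80), the direction opposite to Egr2, and with all 26 libraries it was called in Treg cells only. Of 13 tested genes of CD69 and tissue retention, 1 rose and 4 fell in CNS Tconv cells of icKO mice, beside 1.58% and 1.53% of all tested genes. The fit of all 26 libraries had 0 that rose and 2 that fell, and that without the 5 had 0 and 3. Those lower included Klf2 (-1.08 ± 0.26, adjusted p = 0.0243), the factor that drives exit from tissue, and the lymph node homing gene Ccr7 (-1.99 ± 0.25, adjusted p = 0.000185). Ccr7 was called with all 26 libraries (-1.99, adjusted p = 0.000767) and Klf2 was not (-1.09, adjusted p = 0.162), and both were called without the 5 libraries.

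Of 18 SRF and CREB regulators, 7 were higher and 1 lower in CNS than in dLN Treg cells of icKO mice, 5 and 1 in Ctrl Treg cells, 3 and 2 in icKO Tconv cells and 2 and 1 in Ctrl Tconv cells. The shares of all genes, in the same order, were 13.1% higher and 9.41% lower, 13.3% and 8.55%, 7.81% and 6.3%, and 5.97% and 2.93%. The 2 and 1 of 18 in Ctrl Tconv cells and the single genes lower in Treg cells lay near these shares. All 26 libraries together gave 2 and 0, 1 and 0, 0 and 1, and 0 and 0. Crem, which encodes CREB family factors that bind the CRE, was called higher in all 4 (2.15 to 4.10) and with all 26 libraries in 0 of 4 (1.89 to 2.45, adjusted p 0.072 to 0.134). Of 22 heat shock and stress genes, 4 were higher and 3 lower in CNS Treg cells of icKO mice, 6 and 3 in Ctrl Treg cells, 4 and 0 in icKO Tconv cells, and 2 and 2 in Ctrl Tconv cells. Read against the same shares of all genes, the 4 and 3 of 22 in icKO Treg cells lay near 13.1% and 9.41%. On the same 26 libraries 0 and 2, 2 and 2, 4 and 1, and 1 and 1 of the 22 were called. The summed level of these stress genes was 5417 to 8939 CPM in CNS and 5501 to 6826 CPM in dLN libraries. The inducible chaperone genes Hspa1a and Hspa1b were higher in CNS Tconv cells of both genotypes, at 0.146 to 50.3 CPM, against at most 0.771 CPM in dLN Tconv libraries, with Ctrl replicate 3 lowest in the CNS and, for Hspa1b, inside the dLN range. Whether handling of the tissue has a part in any of these levels was not tested.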

How the data were processed

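RNA from sorted cells was amplified with a Smart-seq kit and made into unstranded libraries, per the labels' protocols. Expected counts and TPM per gene were deposited by the authors, who list FastQC, Trimmomatic, STAR 2.5.3a, RSEM 1.2.28 and mm10, per the submitters' processing notes. Strand was not marked, so reads of Nr4a2 and Egr2 cannot be told from those of the overlapping LOC105244150 and Gm32255. Expected counts were rounded, filtered by edgeR's filterByExpr (13500 genes kept), scaled by TMM and fitted with 8 group means in edgeR 4.0.16 (quasi-likelihood test, Benjamini-Hochberg over all genes, threshold 0.05), under R 4.3.3. The 15 contrasts were tested on 25 libraries. The script was tested on simulated data. Alternatives used DESeq2 1.42.0, limma 3.58.1 and other sets of libraries. Named genes were all 10 members, up to 3 called genes per list and comparison with the smallest p, and those with the most similar within-group pattern. The members and lists were chosen with earlier results of these data known. Whether same-numbered libraries came from the same mouse is not known. Their deviations from the group means had r from -0.145 to 0.113, which cannot exclude it with so few libraries per group. The fit treated libraries as unpaired.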

Additional observations from a re-analysis of the deposited data

Results flagged for a closer look

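The library left out of the fit, dLN Tconv icKO replicate 3, held several members above all 3 dLN Tconv Ctrl libraries, in CPM of the library total. Egr1 had 363.7 CPM in it, against 140.6 to 157.8 CPM in the Ctrl libraries. Dusp1 had 193.0 CPM, against 41.1 to 59.0 CPM. Ier2 had 570.5 CPM, against 201.9 to 276.3 CPM. Cd69 had 473.5 CPM, against 265.0 to 321.5 CPM, and Dusp2 had 441.1 CPM, against 409.9 to 440.6 CPM. The same library had Fos at 370.5 CPM and Foxp3 at 14.7 CPM, while Nr4a2 and Jun had 0 counts. It is a single library with the lowest depth, and the part of its composition in these levels was not tested. None of 20 tested sets of 4 values held a value that stood apart by Dixon's test. Only the CNS Tconv groups held 4 libraries, so the test did not cover the other groups or the library left out. With 4 values it can flag only a value far from the rest.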

How the results depend on the processing

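The number of members called, by comparison, moved as follows. For icKO against Ctrl in CNS Tconv cells it was 1, and 0 with all 26 libraries, without the 5 libraries named for the other genotype, from those 5 alone (chosen after seeing the data) and with the compared groups only, and 4 with DESeq2 and 4 with limma voom. For CNS against dLN in Ctrl Tconv cells it was 2, and 1 with all 26 libraries, from the 5 alone and with the compared groups only, 4 with DESeq2 and with voom, and 5 without the 5. In icKO Treg cells it was 3, and 1 with all 26. In icKO Tconv cells it was 2, and 0 with all 26, 1 with DESeq2 size factors, with no filter and without the 5, and 4 with voom and with the compared groups only. For Treg against Tconv in the Ctrl CNS it was 2, and 1 with all 26, from the 5 alone and with the compared groups only, and 4 without the 5. In the Ctrl dLN it was 1, and 4 with voom and 5 with the compared groups only. In the icKO CNS it was 2, and 1 with all 26 and without the 5. In the icKO dLN it was 1, and 0 with all 26 and 4 with the compared groups only. Of the tests of differences, tissue in Treg minus Tconv gave 1 without the 5, and genotype in Treg minus Tconv 1 with DESeq2, both Egr1. The causes were not tested.

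Whether the replicate numbers pair the libraries is not known, and the reported fit treats the libraries as unpaired. With the replicate block the counts were 4 for CNS against dLN in Ctrl Treg, 5 in Ctrl Tconv and 1 in icKO Tconv cells, 6 for Treg against Tconv in the Ctrl CNS and 1 for tissue in Treg minus Tconv, and the other 10 counts stayed within 1.5 times.

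Leaving out 1 library at a time gave 0 to 6 calls for genotype in CNS Tconv cells, and 0 to 0 in the other genotype comparisons and in genotype CNS minus dLN. It gave 2 to 3 for tissue in Ctrl Treg, 2 to 5 in Ctrl Tconv, 2 to 4 in icKO Treg and 1 to 2 in icKO Tconv cells. For Treg against Tconv it gave 1 to 5 in the Ctrl CNS, 1 to 1 in the Ctrl dLN, 1 to 3 in the icKO CNS and 0 to 1 in the icKO dLN, and 0 to 2 for each of the other tests of differences. Without the 5 libraries the sign of Cd69 turned in icKO mice, to -0.10 for CNS against dLN Tconv cells and 0.01 for Treg against Tconv cells in the CNS, neither of them called in the fit of 25 libraries. Every value without the 5 rests on 1 icKO and 2 Ctrl libraries of CNS Tconv cells, and the lone icKO library is assumed to vary like the other groups. Depth of 12.4 M or more leaves Nr4a2, at 0 CPM in some libraries, the least precise member.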
